A study of Homo sapiens with 6 samples.

Results

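The TRIM genes encode a family of ubiquitin ligases, and 77 of the 19974 protein-coding genes of the RefSeq GRCh38 annotation on chromosomes 1 to 22 and X carry a symbol made of TRIM and a digit. All 77 were taken, and a gene was counted as having a gene-end peak in a library when a called peak lay within 1000 bp of its annotated start or end. Chromatin accessibility was measured by ATAC-seq, an assay in which a transposase tags open DNA for sequencing, in 6 libraries of Huh7, a human hepatocellular carcinoma line. In every library the cells lacked their own ARID1A, a subunit of the BAF chromatin-remodelling complex, and stably expressed a Flag-tagged ARID1A from a lentivirus. In the V2084D shSTUB1 group the transgene carried the missense change V2084D and STUB1, the chaperone-associated ubiquitin ligase also called CHIP, was knocked down by a hairpin. The V2084D group carried the same mutant without that hairpin, and the WT group carried unmutated ARID1A. Each group held 2 libraries, which nothing describes as separate cultures, so the spread between them may be technical. No control hairpin is named in the labels of the V2084D libraries, so hairpin delivery and loss of STUB1 cannot be told apart.

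Most TRIM proteins share a tripartite N-terminal module of a RING finger, which recruits a ubiquitin-charged E2 enzyme, 1 or more B-boxes and a coiled coil through which they assemble. Their C-terminal domain selects the target and sorts the family into classes: many SPRY-domain members act in antiviral and interferon responses, while TRIM24, TRIM28, TRIM33 and TRIM66 carry a PHD finger and a bromodomain and act on chromatin as transcriptional cofactors. Several SPRY-domain genes lie in tandem arrays, some of which arose by recent duplication.

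The 300-base promoters of 6 members are printed first, because they span the range between members open in every library and a member with no peak at all. Each runs from 250 bases before to 50 after the annotated start in the RefSeq promoter table and is written 5′ to 3′ on the gene's own strand. Capitals mark matches, on either strand, to the 6 motifs searched: the GC box GGGCGG, an ETS site CCGGAAG, the NRF1 site GCGCATGC, the cyclic AMP response element TGACGTCA, the CCAAT box and TTTCNNTTT, the core of the interferon-stimulated response element (ISRE). TRIM37, TRIM59 and TRIM23 were open in all 6 libraries, TRIM33 and TRIM21 are among the members that differed between groups, and TRIM49, from a tandem array on chromosome 11, had none.
TRIM37 (chr17:59106831-59107130, GRCh38.p14, minus strand): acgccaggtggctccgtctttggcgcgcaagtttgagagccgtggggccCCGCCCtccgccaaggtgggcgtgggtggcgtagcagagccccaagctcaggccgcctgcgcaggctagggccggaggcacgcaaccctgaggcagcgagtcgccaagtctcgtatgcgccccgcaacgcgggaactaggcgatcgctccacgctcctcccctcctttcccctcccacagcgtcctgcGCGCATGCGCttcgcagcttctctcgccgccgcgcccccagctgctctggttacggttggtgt
TRIM59 (chr3:160449737-160450036, GRCh38.p14, minus strand): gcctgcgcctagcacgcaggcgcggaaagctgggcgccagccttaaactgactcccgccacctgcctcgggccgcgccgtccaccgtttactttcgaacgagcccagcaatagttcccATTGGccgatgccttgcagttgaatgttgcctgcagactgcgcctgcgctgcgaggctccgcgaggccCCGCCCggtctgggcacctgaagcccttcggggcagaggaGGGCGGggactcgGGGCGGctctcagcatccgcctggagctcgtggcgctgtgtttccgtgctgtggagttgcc
TRIM23 (chr5:65624284-65624583, GRCh38.p14, minus strand): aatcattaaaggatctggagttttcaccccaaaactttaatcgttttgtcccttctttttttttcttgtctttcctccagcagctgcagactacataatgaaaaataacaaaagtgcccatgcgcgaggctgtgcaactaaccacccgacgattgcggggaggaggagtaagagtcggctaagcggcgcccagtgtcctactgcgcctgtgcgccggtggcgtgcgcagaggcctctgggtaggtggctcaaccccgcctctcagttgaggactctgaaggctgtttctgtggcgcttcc
TRIM33 (chr1:114511154-114511453, GRCh38.p14, minus strand): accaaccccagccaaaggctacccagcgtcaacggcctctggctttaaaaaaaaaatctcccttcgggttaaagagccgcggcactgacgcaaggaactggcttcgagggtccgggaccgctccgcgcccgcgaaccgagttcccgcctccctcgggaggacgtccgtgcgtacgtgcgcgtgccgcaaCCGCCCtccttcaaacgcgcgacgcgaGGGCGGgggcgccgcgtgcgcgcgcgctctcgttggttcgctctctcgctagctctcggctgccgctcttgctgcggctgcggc
TRIM21 (chr11:4393653-4393952, GRCh38.p14, minus strand): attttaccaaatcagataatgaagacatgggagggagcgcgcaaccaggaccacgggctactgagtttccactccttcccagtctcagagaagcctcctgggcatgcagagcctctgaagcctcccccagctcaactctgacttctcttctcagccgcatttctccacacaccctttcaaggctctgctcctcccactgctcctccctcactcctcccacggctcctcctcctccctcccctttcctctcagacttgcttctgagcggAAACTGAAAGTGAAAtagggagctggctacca
TRIM49 (chr11:89808526-89808825, GRCh38.p14, minus strand): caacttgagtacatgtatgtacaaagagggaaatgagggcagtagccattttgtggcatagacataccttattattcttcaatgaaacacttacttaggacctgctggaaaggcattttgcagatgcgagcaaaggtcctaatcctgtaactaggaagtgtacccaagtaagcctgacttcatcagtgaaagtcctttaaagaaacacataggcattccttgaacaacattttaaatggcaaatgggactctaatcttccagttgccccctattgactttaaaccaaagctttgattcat
The TRIM37 promoter held 1 GC box and 2 overlapping NRF1 matches, and that of TRIM59 held 3 GC boxes and 1 CCAAT box. TRIM33 held 2 GC boxes. TRIM21, a cytosolic antibody receptor, held no GC box and 2 overlapping ISRE cores. TRIM23 and TRIM49 held none of the 6 motifs, although every library had a peak at TRIM23 and no library had a peak at TRIM49. The lack of a peak at TRIM49 is uncertain, because the gene has near-identical copies. The ratio of observed to expected CpG was 0.914 in TRIM37, 0.845 in TRIM59, 0.759 in TRIM23 and 1.29 in TRIM33, against 0.290 in TRIM21 and 0.0848 in TRIM49.

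The peak lists differed widely in length. They held 21728 and 15326 summits in the V2084D shSTUB1 libraries (replicates 1 and 2), 9231 and 30768 in the V2084D libraries and 10441 and 7401 in the WT libraries. Relative depth, estimated from the values of the peak caller with the shallowest library set to 1, was 1.49 and 1.23 in V2084D shSTUB1, 1.17 and 1.70 in V2084D and 1.01 and 1 in WT, and a site without a peak is one where the caller made no call at that depth, which does not show that it was closed. Of 12 hepatocyte marker genes, FOXA3 had a gene-end peak in 5 libraries and APOA1 in 3, while the other 10, ALB, AFP and HNF4A among them, had none in any library. SPI1 was the 1 of 5 leukocyte markers with a peak, COL1A1 the 1 of 4 fibroblast and stellate markers, and none of the 3 endothelial markers had one. Neither ARID1A nor STUB1 could check the engineering, since a peak at a gene does not report a knockout or a hairpin; ARID1A had a peak in 1 library and STUB1 in none.

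A gene-end peak was present in at least 1 library at 39 of the 77 TRIM genes (50.6%), against 58.2% of all protein-coding genes. Of the members, 9 had one in all 6 libraries (11.7%), where 15.8% of all genes did. A further 6 were open in 5 libraries (11% of all genes), 7 in 4 (8.84%), 6 in 3 (7.87%), 8 in 2 (7.3%) and 3 in 1 (7.29%). The other 38 had no gene-end peak in any library, a state that 41.8% of all genes shared. By library, peaks lay at 28 members (36.4%) in V2084D shSTUB1 replicate 1, where the share of all genes was 48.1%, and at 31 (40.3%) in replicate 2, where it was 40.6%. In V2084D they lay at 19 members (24.7%) in replicate 1, beside 31.1% of all genes, and at 37 (48.1%) in replicate 2, beside 54.7%. In WT they lay at 19 members (24.7%) in replicate 1, beside 32.3%, and at 15 (19.5%) in replicate 2, beside 24.2%. The TRIM share was highest in the longest list and lowest in the shortest, and it was below that of all genes in each of the 6 libraries, by very little in V2084D shSTUB1 replicate 2.

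**Figure D1:**
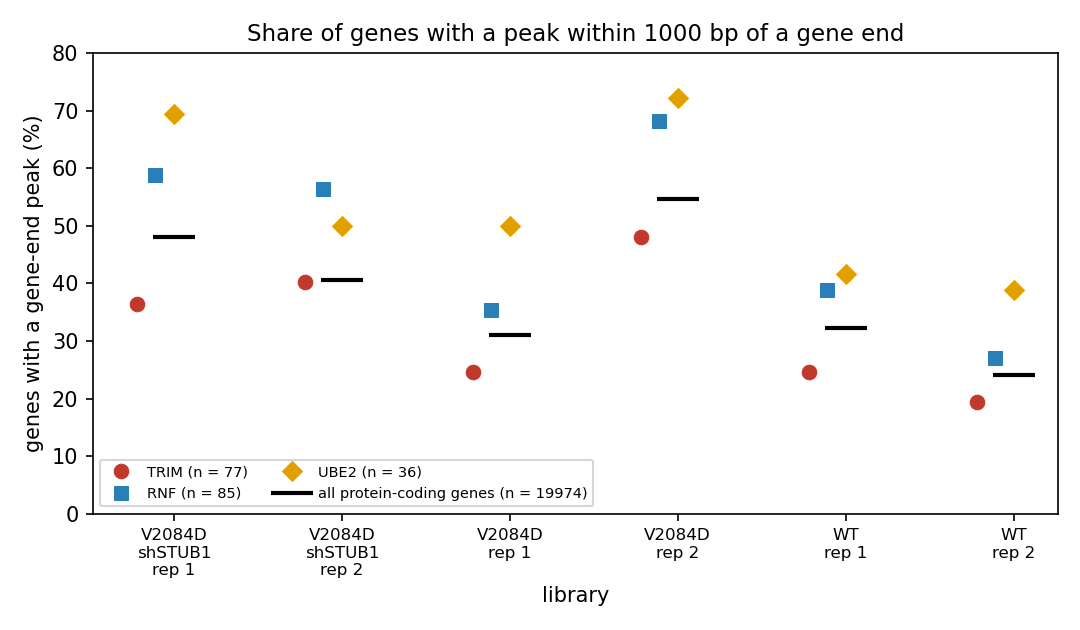
Percent of genes with a peak within 1000 bp of a gene end (y axis) in each library (x axis), for TRIM genes (circles, n = 77), RNF genes (squares, n = 85), UBE2 genes (diamonds, n = 36) and all protein-coding genes (black bars, n = 19974). The TRIM share runs from 19.5% in WT replicate 2 to 48.1% in V2084D replicate 2 and lies under the RNF and UBE2 shares in every library.

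In the 2 other families of the ubiquitin pathway that were compared, RNF and UBE2, genes were open more often. Averaged over the 6 libraries, 32.3% of TRIM genes had a gene-end peak, against 47.5% of the 85 genes named RNF and a digit, most of which encode RING proteins outside the family, and 53.7% of the 36 UBE2 genes, which encode E2 enzymes. The TRIM share minus the RNF share was -15.2 ± 5.63 percentage points and minus the UBE2 share -21.5 ± 7.99 points (mean ± SD of the within-library differences, n = 6), below 0 in 6 of 6 libraries each. Minus the share of all protein-coding genes it was -6.25 ± 3.75 points, again below 0 in 6 of 6. With −log10 q of at least 5 this last difference was -3.99 ± 4.83 points, below 0 in 4 of 6. It was below 0 in 5 of 6 with lists of equal length, with a 2000 bp window and with peaks merged over libraries. The direction of the mean against all genes turned when the 2 readthrough genes and the members with near-identical copies were left out. This choice was made after seeing the data. The other 59 members averaged 42.1%, 3.59 points above all genes, with 2 of 6 libraries below. None of the 18 genes left out had a gene-end peak, so leaving them out could only raise the TRIM share. The comparison sets kept all their genes, copies and readthrough genes included, so the sets are unlike. How the authors' alignment treated near-identical copies was not tested, so the lack of a peak at the genes left out is uncertain. Against RNF genes the 59 members were still lower in 6 of 6 libraries, with a mean difference of -5.36 points, and against UBE2 genes in 5 of 6, with one of -11.6 points.

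The members were counted by genome arrangement, with open meaning a gene-end peak in any library. Members whose gene bodies lay within 200000 bp of the next member formed 9 tandem clusters of 34 genes, of which 9 genes (26.5%) had a gene-end peak in any library, whereas 30 of the 43 single genes (69.8%) did and 13 did not. Without the readthrough genes and near-identical copies, whose lack of a peak is uncertain, the counts were 9 of 20 clustered genes (45%) and 30 of 39 single genes (76.9%). No peak was called at any member of 4 clusters: the pair TRIM43B and TRIM43 on chromosome 2, the trio TRIM61, TRIM60 and TRIM75 on chromosome 4, and 2 arrays on chromosome 11, one with TRIM51G, TRIM49B and TRIM64C and one of 7 genes with TRIM77, TRIM49, TRIM64B, TRIM49D1, TRIM49D2, TRIM64 and TRIM49C. In the array of 7 on chromosome 6, within the major histocompatibility region, TRIM31 had a peak in 3 libraries and TRIM39 in 1. TRIM40, TRIM10, TRIM15, TRIM26 and the readthrough gene TRIM39-RPP21 had none. Between 2.07% and 2.6% of the summits of a list lay outside the chromosomes used and were left out. How the authors' alignment treated the major histocompatibility region was not tested. The lack of a peak in the chromosome 6 array is therefore uncertain too, as is its part in the counts of clustered genes. In the chromosome 11 array that holds TRIM6, TRIM34, TRIM22 and the readthrough gene TRIM6-TRIM34, only TRIM5, whose product binds retroviral capsids, had a gene-end peak, in 2 libraries. TRIM41 had a peak in 6 libraries and TRIM52 in 5 in the chromosome 5 trio, where TRIM7 had none; TRIM65 had 2 and TRIM47 had 1 on chromosome 17; and TRIM11 and TRIM17 on chromosome 1 had a single shared peak in all 6.

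By domain class the counts ran as follows, beside the 58.2% of all genes that were open in at least 1 library. All 4 genes of the PHD and bromodomain class had a gene-end peak in some library, as did all 4 of the class with COS, FN3 and SPRY domains (TRIM9, TRIM46, TRIM36 and TRIM67, whose products bind microtubules), all 4 of the NHL-repeat class (TRIM32, TRIM71, TRIM3 and TRIM2) and both members with a transmembrane segment, TRIM59 and TRIM13, which were open in every library. The only MATH-domain member, TRIM37, and the only ARF-domain member, TRIM23, were also open in all 6. In the COS-box class 1 of 3 genes, TRIM55, had a peak, and neither the only member with a COS box and an FN3 domain, TRIM42, nor the only filamin-domain member, TRIM45, had one. In the large SPRY class 15 of 42 genes had a peak, and in the class without a C-terminal domain 4 of 8 did. Both classes hold near-identical copies, such as those of TRIM49 and TRIM64 in the first and TRIM73 and TRIM74 in the second. The lack of a peak at these copies is uncertain, so both class counts may be too low. Of the 4 members of the class without a RING finger, TRIM44, TRIM14 and TRIM16 had a peak and TRIM29 had none. TRIM66, counted in the PHD and bromodomain class, also lacks a RING finger.

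Promoter sequence was described for the same members. Of the 77 members, 62 had an entry in the promoter table. The median ratio of observed to expected CpG was 0.837 in the 7 members open in all 6 libraries, 0.682 in the 24 open in 1 to 5 and 0.178 in the 31 with no gene-end peak. Over all protein-coding genes with a promoter entry the same medians were 0.855, 0.843 and 0.359, so TRIM promoters followed the general order and lay lower in each class. The 31 without a peak include readthrough genes and near-identical copies, TRIM73 and TRIM74 among the copies. Their lack of a peak is uncertain and some have the same promoter sequence, so the CpG and motif values of the 31 rest partly on them. Exceptions stood on both sides. TRIM26, TRIM73, TRIM74 and TRIM7 had ratios between 0.699 and 0.948 and no peak. The lack of a peak at TRIM26, in the chromosome 6 array, is uncertain too. TRIM21 had a peak over its promoter in 4 libraries at a ratio of 0.290. These classes count a peak at either end of the gene: the peaks of TRIM17, 1 of the 7, and of TRIM31, with the lowest ratio of the 24 at 0.0674, lay at the far end and not at the promoter. A GC box was found in 40.3% of the 62 TRIM promoters, against 58.5% of all promoters. It stood in 21 of 31 TRIM promoters of genes with a gene-end peak (67.7%) and 4 of 31 without one (12.9%), where over all genes the shares were 72% and 37.5%. ISRE cores were found in 22.6% of TRIM promoters, against 8.62% of all. They stood in 8 of 31 with a peak (25.8%) and 6 of 31 without (19.4%), where over all genes the shares were 6.31% and 12.2%. The ETS site was found in 4.84% of TRIM promoters and 14.2% of all, the NRF1 site in 4.84% and 4.26%, the CCAAT box in 40.3% and 36.3%, and the cyclic AMP response element in 0 of 62 and 2.59%. Of the 113 matches in TRIM promoters, 2 overlapped a match to another motif, and a match of letters is not a bound site.

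**Figure D2:**
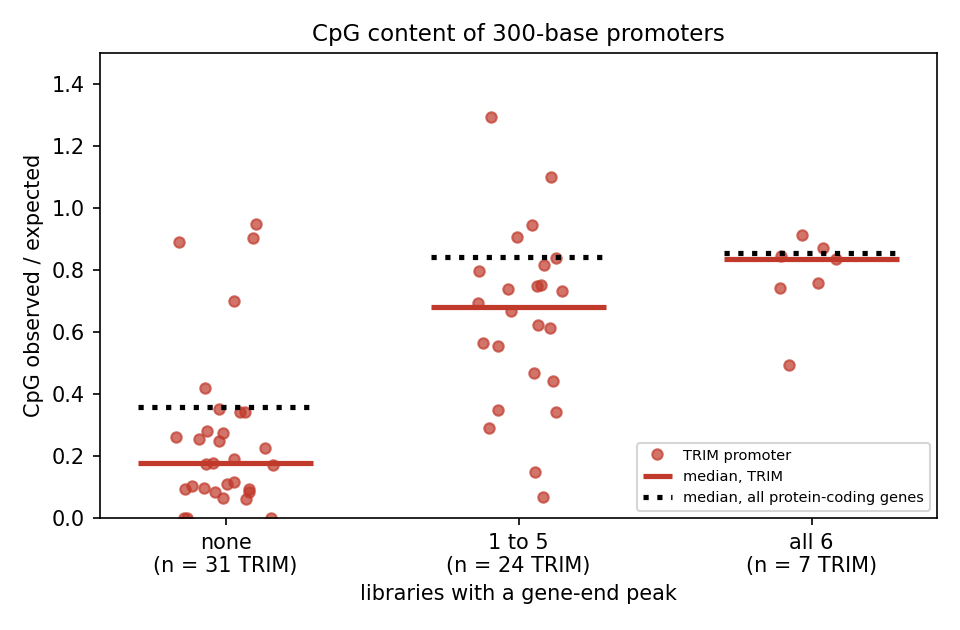
Ratio of observed to expected CpG in the 300-base promoter (y axis) of 62 TRIM genes (points), split by the number of libraries with a gene-end peak (x axis), with the median of the TRIM genes (solid line) and of all protein-coding genes (dotted line). The TRIM medians are 0.178, 0.682 and 0.837, and 4 members without a peak lie above 0.6, of which TRIM73 and TRIM74 are near-identical copies.

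The median fold of the members' peaks was 5.97 and 6.0 in V2084D shSTUB1, 5.42 and 5.88 in V2084D and 5.45 and 5.93 in WT, beside 6.08 and 5.91, 5.62 and 6.47, and 5.85 and 5.77 over all genes with a gene-end peak in the same libraries. The strongest gene-end peak of each member in each library gave 149 peaks, 200 to 1282 bp wide with a median of 435 bp, with 4 to 34 reads at the summit and a median of 11; the reads were recovered from the fold and p-value of each peak. For the 112 peaks of genes with an annotated start site in the promoter table, 95 summits lay within 1000 bp of it, which the choice of peaks near gene ends largely fixes, and the median distance of these 95 was 138 bp. Counting all gene-end peaks and not only the strongest, 36 members had peaks in 2 or more libraries. At 30 of these at least 1 base was covered in every library that had a peak. TRIM58, TRIM36, TRIM52, TRIM31, TRIM14 and TRIM8 were the 6 members without such a base. Among the strongest peaks alone, those of TRIM62, TRIM41 and TRIM55 also had no base common to all their libraries. Of the 149 peaks, 31 at 6 members were shared with the end of another protein-coding gene, so that the openness of the 2 genes cannot be told apart.

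**Figure D3:**
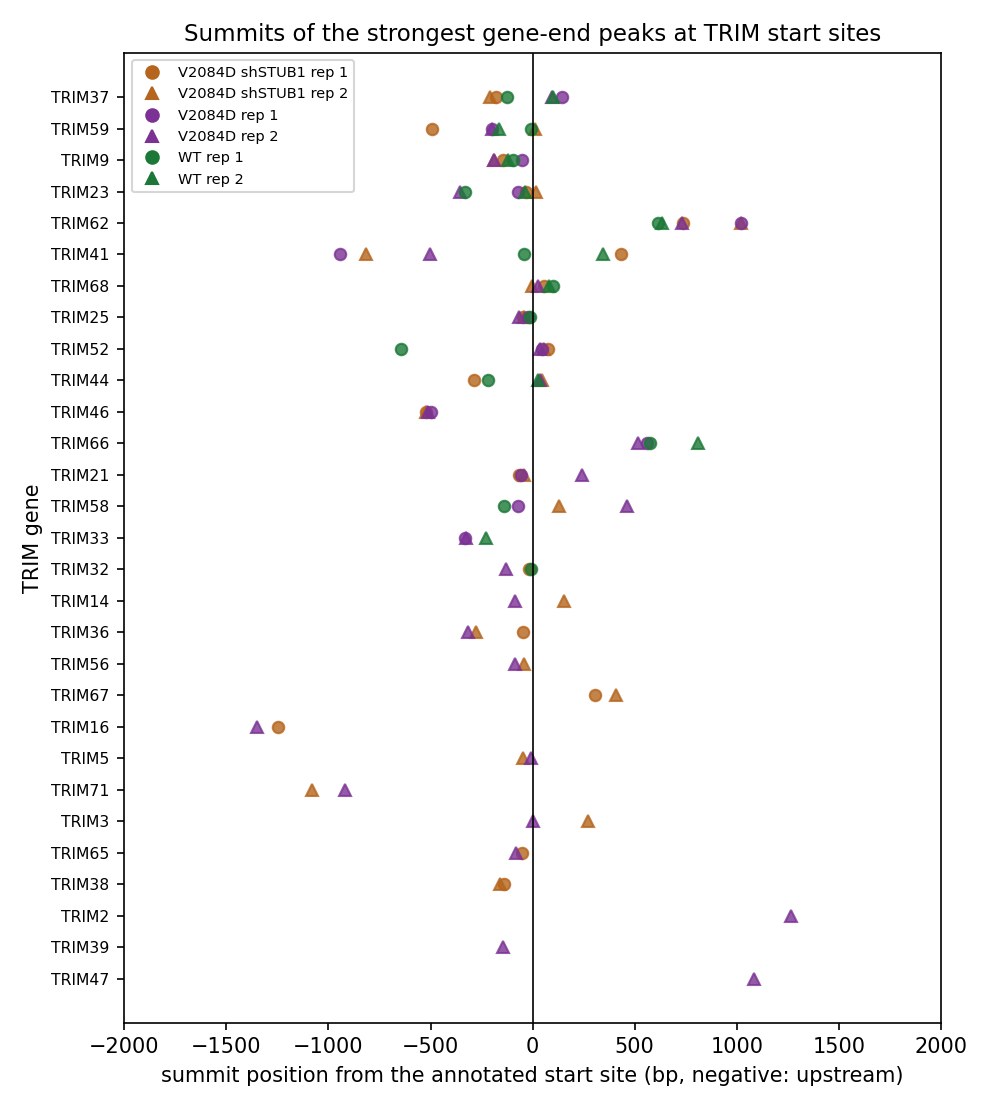
Position of the summit of the strongest gene-end peak relative to the annotated start site (x axis, bp, negative upstream), for TRIM genes with a start site in the promoter table (rows), with colour for the group and shape for the replicate; peaks beyond 2000 bp are not drawn. Most summits cluster near 0, while those of TRIM46 lie 498 to 522 bp upstream and those of TRIM62 at 615 to 1021 bp downstream.

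Among the members open in all 6 libraries, TRIM37 ranked highest. It encodes a ligase that limits centriole assembly and is mutated in mulibrey nanism. The authors' fold of its peak over local background was 6.90 and 6.19 in V2084D shSTUB1, 8.0 and 9.15 in V2084D and 6.57 and 7.27 in WT. The peak ranked between the 70.9 and 97.1 percentile of −log10 q in the 6 lists, with a mean of 85.8. TRIM59, an endoplasmic reticulum membrane protein, had folds of 6.43 and 8.15 in V2084D shSTUB1, 6.54 and 6.85 in V2084D and 5.75 and 8.67 in WT, and a mean percentile of 84.7. For TRIM59 the folds of the 3 groups overlapped, and for TRIM37 the highest were those of V2084D.

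TRIM9, a brain-enriched ligase, had a mean percentile of 81.2, with folds of 6.76 and 6.0 in V2084D shSTUB1, 7.75 and 5.11 in V2084D and 4.76 and 8.19 in WT. TRIM23 followed at 80.5, with folds of 10 and 7.34 in V2084D shSTUB1, 6.13 and 9.29 in V2084D and 4.82 and 8.26 in WT; its peak also covered the ends of TRAPPC13 and SHLD3. TRIM62 had a mean percentile of 74.6, and its summits lay 615 to 1021 bp inside the gene. The peak shared by TRIM11 and TRIM17, both SPRY-domain ligases, had a mean percentile of 70.7, with folds of 8.72 and 7.09 in V2084D shSTUB1, 5.42 and 5.73 in V2084D and 5.45 and 5.11 in WT. It lay at the far end of TRIM17, 9872 to 10025 bp from that gene's start site. The 2 lowest were TRIM13, an endoplasmic reticulum ligase, at 59.5 and TRIM41 at 57.3. TRIM41 had many reads at its summit, 28 and 21 in V2084D shSTUB1, 11 and 34 in V2084D and 14 and 16 in WT, yet low folds of 5.64 and 4.82, 3.47 and 4.32, and 3.71 and 4.89 in the same groups. The strongest TRIM41 peaks did not all overlap between libraries, so these values do not all describe the same site.

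The 6 members open in 5 libraries lacked their peak in a short list. TRIM28, TRIM68 and TRIM44 had none in V2084D replicate 1, and TRIM25, TRIM52 and TRIM35 had none in WT replicate 2. TRIM25 is the ligase that modifies the RNA sensor RIG-I; its folds were 5.94 and 6.45 in V2084D shSTUB1, 5.77 and 7.81 in V2084D and 6.63 in WT replicate 1. The 3 members open in a single library, TRIM2, TRIM39 and TRIM47, were all open in V2084D replicate 2, the longest list, a pattern that 4.83% of all genes shared. TRIM2 also had a peak 1160 to 1575 bp inside its start in both V2084D shSTUB1 libraries and V2084D replicate 1, beyond the window, and none there in WT; with a window of 2000 bp, or with peaks merged over libraries, it joined the members open in V2084D and not in WT.

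**Figure D4:**
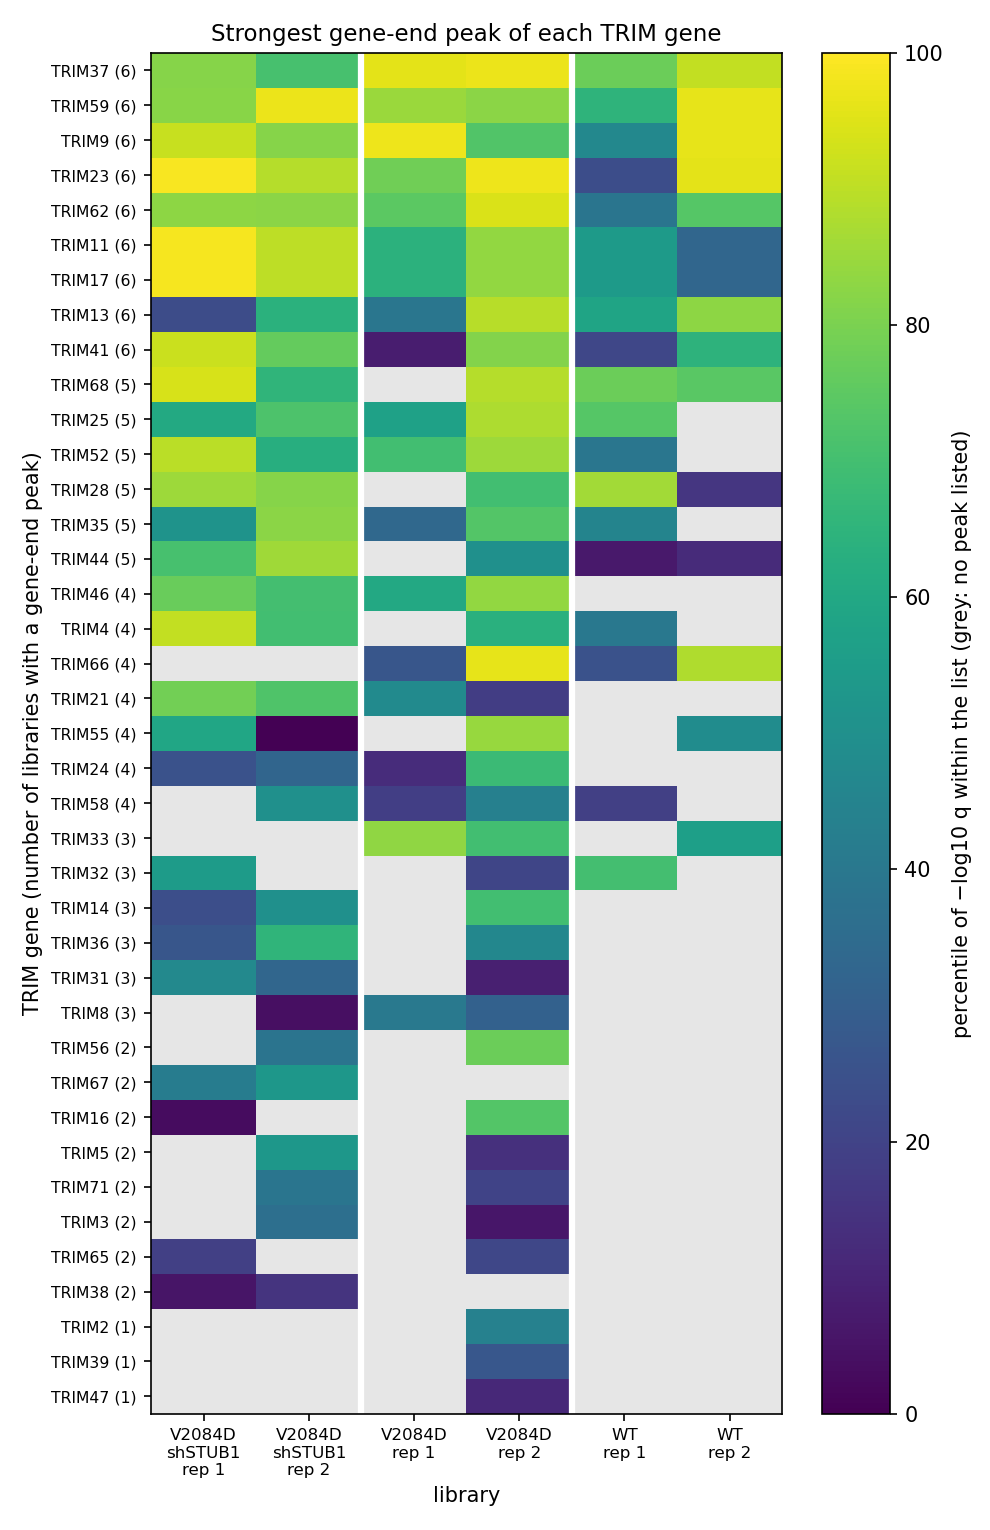
Percentile of −log10 q within its own list (colour) of the best gene-end peak at each of the 39 TRIM genes that had any (rows, with the number of libraries in parentheses) in the 6 libraries (columns); grey means that no peak was listed. The upper rows are filled in every library, the lower rows mainly in V2084D replicate 2 and the V2084D shSTUB1 libraries, and TRIM33 and TRIM66 are empty in both V2084D shSTUB1 libraries.

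The first comparison asked whether mutant ARID1A went with another state of TRIM genes than WT ARID1A. The mean TRIM share was 36.4 ± 16.5% in V2084D and 22.1 ± 3.67% in WT (SD, n = 2 each), a difference of 14.3 points that was smaller than the spread within V2084D. It was 26 points without V2084D replicate 1, 2.6 points without V2084D replicate 2 and 1.3 points with lists of equal length. Set against all genes of the same list, the TRIM share was 0.836 ± 0.0603 of theirs in V2084D and 0.785 ± 0.0299 in WT, a difference of 0.0508. With 2 libraries a group an exact two-sided permutation test cannot give a p below 0.333, so no difference between groups could pass. TRIM46, TRIM24, TRIM8 and TRIM21 were open in V2084D replicates 1 and 2 and had no peak in either WT library. These 4 are 5.19% of the members, near the 5.07% of all genes with that pattern. No TRIM gene had the opposite pattern, which 0.0501% of all genes held.

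TRIM46 organises microtubules in the axon initial segment of neurons. Its peak had folds of 5.61 and 6.99, with 10 and 19 reads at the summit, in V2084D, and no peak lay there in WT, where the nearest called peaks were 5.24 and 5.45 kb away. The summits lie 498 to 522 bp before the TRIM46 start and also at an end of KRTCAP2. TRIM24, a nuclear receptor cofactor that reads histone acetylation, had folds of 4.32 and 5.86 with 6 and 16 reads in V2084D, and in WT the nearest called peak 458 kb away. TRIM21 had folds of 5.38 and 4.55 with 6 reads in each V2084D library, and none in WT, where the nearest was 206 kb away. TRIM8, a regulator of cytokine signalling, had folds of 4.76 and 3.79 with 11 and 16 reads in V2084D and no peak in WT. The TRIM46, TRIM24 and TRIM21 peaks were also in both V2084D shSTUB1 libraries, so that 3 members were open in all 4 libraries with the mutant and in neither WT library, where 3.06% of all genes were.

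Of the WT lists, replicate 2 was the shortest of all, and replicate 1 was longer only than WT replicate 2 and V2084D replicate 1. With each list reduced to its strongest 7234 summits, TRIM46 alone kept the pattern and TRIM28 took the opposite one, and with peaks of −log10 q of at least 5 none of the 4 kept it, while TRIM33 gained it. The count rose to 16 without V2084D replicate 1, when 18.9% of all genes had the pattern, and to 8 without WT replicate 1, when 12% did. Without V2084D replicate 2, 3 members had the WT pattern, beside 3.49% of all genes.

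The second comparison asked what went with knockdown of STUB1 in the mutant cells. The mean TRIM share was 38.3 ± 2.75% in V2084D shSTUB1 and 36.4 ± 16.5% in V2084D, and the ratio to all genes was 0.874 ± 0.168 and 0.836 ± 0.0603 in the same order (SD, n = 2 each). The differences, 1.95 points and 0.0384, were smaller than the spread within a group. TRIM67 and TRIM38 had a peak in both V2084D shSTUB1 libraries and in neither V2084D library, 2.60% of the members beside 0.365% of all genes. TRIM33 and TRIM66 had the opposite pattern, again 2.60% beside 0.656%. These shares rest on 2 members each.

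TRIM33 and TRIM66 belong to the same 4-member class of chromatin cofactors. TRIM33 binds SMAD proteins and monoubiquitinates SMAD4. Its peak, which overlaps the promoter printed above, had folds of 6.74 and 6.20 with 11 and 15 reads in V2084D and 5.81 with 9 reads in WT replicate 2. In both V2084D shSTUB1 libraries, as in WT replicate 1, none was called, and the nearest peaks in V2084D shSTUB1 lay 70.0 and 70.1 kb away. Only 10 protein-coding genes, TRIM33 included, showed this exact pattern over the 6 libraries. TRIM66, a testis-enriched cofactor, had folds of 4.82 and 9.54 with 7 and 24 reads in V2084D and of 4.88 and 7.47 with 7 and 12 reads in WT, and no peak in V2084D shSTUB1. Its pattern was held by 7 protein-coding genes, TRIM66 included. The TRIM66 peak also lies at an end of RPL27A, a ribosomal protein gene.

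TRIM67, a brain-enriched relative of TRIM9, had folds of 5.48 and 5.80 with 7 reads in each V2084D shSTUB1 library, and none in V2084D or WT. TRIM38, which restrains innate immune signalling, had folds of 3.73 and 4.17 with 4 reads in each V2084D shSTUB1 library, at the 5.73 and 15.1 percentile of its lists. The other chromatin cofactors did not follow TRIM33 and TRIM66. TRIM28, the corepressor of KRAB zinc-finger proteins, had folds of 6.87 and 6.86 in V2084D shSTUB1, 6.20 in V2084D replicate 2 and 7.01 and 4.49 in WT. TRIM24 had folds of 4.47 and 4.95 in V2084D shSTUB1, beside those given above for V2084D.

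With lists of equal length TRIM66 kept its pattern, TRIM33 did not, and neither TRIM67 nor TRIM38 did, while TRIM4, TRIM44 and TRIM28 became open in V2084D shSTUB1 alone, 3 members beside 1.28% of all genes. With −log10 q of at least 5 TRIM33 kept it and the other 3 did not, and TRIM21 became open in V2084D shSTUB1 alone. Without V2084D shSTUB1 replicate 2, 4 members had a peak in V2084D alone, beside 1.33% of all genes, and without V2084D replicate 1, 5 had, beside 6.24%. Without V2084D replicate 2, 10 had a peak in V2084D shSTUB1 alone, beside 10.8%. TRIM67, TRIM33 and TRIM66 kept theirs with windows of 500 and 2000 bp, and TRIM38 lost its own at 2000 bp.

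**Figure D5:**
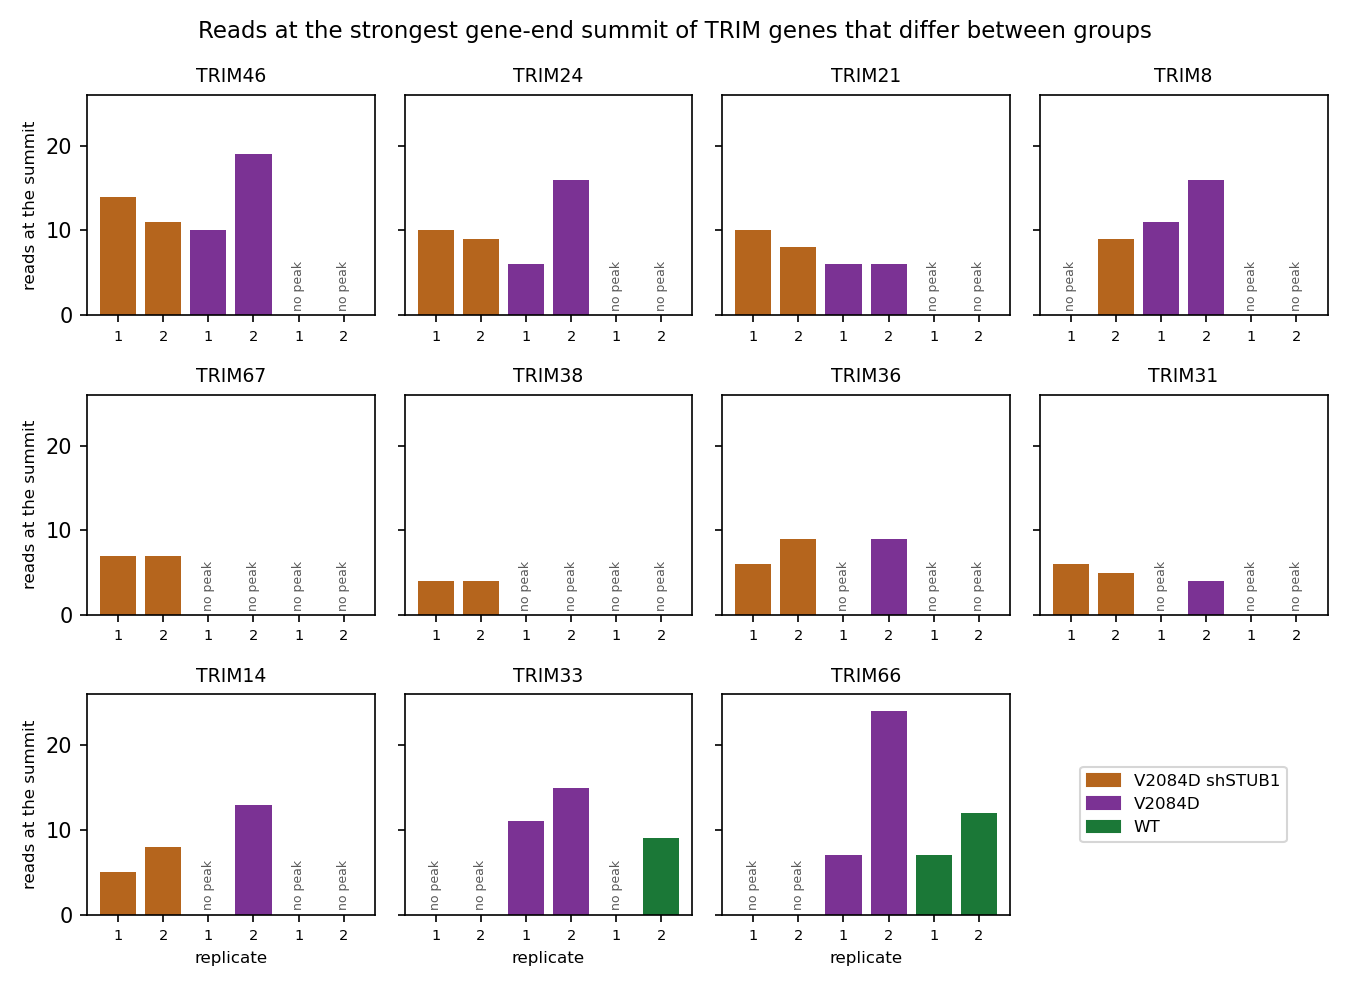
Reads at the summit of the strongest gene-end peak (y axis) in each library (x axis, replicates 1 and 2 of V2084D shSTUB1, V2084D and WT from left to right) for the 11 TRIM genes called in the pair of libraries of one group and absent from the pair of another. TRIM33 and TRIM66 have bars in V2084D and WT and none in V2084D shSTUB1, TRIM46, TRIM24 and TRIM21 have bars in all 4 libraries with the mutant, and TRIM38 reaches 4 reads.

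The third comparison set V2084D shSTUB1 against WT, and shares its libraries with the other 2. The TRIM share was 38.3 ± 2.75% in V2084D shSTUB1 and 22.1 ± 3.67% in WT, a difference of 16.2 points, and the ratio to all genes was 0.874 ± 0.168 and 0.785 ± 0.0299 in the same order, a difference of 0.0892 (SD, n = 2 each). The groups did not overlap in percent, and they overlapped in the ratio. With lists of equal length the differences were 4.55 points and 0.192 in the ratio. TRIM21, TRIM46, TRIM67, TRIM36, TRIM31, TRIM14, TRIM24 and TRIM38 had a peak in both V2084D shSTUB1 libraries and in neither WT library, 10.4% of the members beside 7.07% of all genes. TRIM66 alone had the opposite pattern, 1.3% beside 0.135%.

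TRIM21 had folds of 7.43 and 6.72 with 10 and 8 reads in V2084D shSTUB1, and TRIM46 had 6.58 and 6.32 with 14 and 11 reads; neither had a peak in WT. TRIM36, a sperm acrosome ligase, had folds of 4.93 and 6.33 in V2084D shSTUB1, but the peaks of the 2 libraries did not overlap each other. TRIM31 had folds of 5.56 and 4.92 with 6 and 5 reads, and TRIM14, which lacks a RING and binds the antiviral adaptor MAVS, had 4.69 and 5.70 with 5 and 8 reads, in V2084D shSTUB1. The peaks of TRIM31 lay at its far end, and the strongest peaks of TRIM14 lay at opposite ends of the gene, at the far end in replicate 1 and at the start site in replicate 2, so that these 2 values are not replicates of 1 site. With start sites only, TRIM14 kept the pattern and TRIM31 did not. Both were also open in V2084D replicate 2 and not in WT. With lists of equal length, and with −log10 q of at least 5, TRIM46 and TRIM21 kept the pattern and the other 6 did not. At equal length the count was 2, beside 1.75% of all genes, while at −log10 q of at least 5 it was again 8, beside 6.11%, because TRIM11, TRIM17, TRIM41, TRIM52, TRIM4 and TRIM44 gained the pattern. Without V2084D shSTUB1 replicate 1 the count was 13, beside 9.25% of all genes. Without WT replicate 1 TRIM66 was joined by 1 more gene open in WT alone, 2 in all beside 0.496%.

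Genes that work with TRIM proteins were also looked up. They were chosen with earlier results of these data known, so they give no background for these patterns. Any link between a TRIM gene and its partners was not tested. Of the 4 TRIM28 partners, CBX1, CBX3 and CBX5, the heterochromatin proteins, were open in every library and the methyltransferase gene SETDB1 in 4. SMAD2, of the 3 TRIM33 partners, had folds of 5.49 and 5.43 in V2084D and 4.84 and 6.0 in WT and no peak in V2084D shSTUB1, the pattern of TRIM66. SMAD4 had folds of 5.84 in V2084D shSTUB1 replicate 1 and 3.97 and 5.95 in V2084D, and no peak in WT, and SMAD3 had none in any library. RARA, the receptor bound by TRIM24, had none. Of 7 E2 enzymes 3 had a peak, UBE2N and UBE2D3 among them in all 6 libraries. Of 6 innate sensing genes 5 had one, with RIGI and MAVS in 5 libraries and TBK1 in 4. IRF3 had folds of 4.06 in V2084D shSTUB1 replicate 1 and 6.67 and 7.01 in V2084D, and no peak in WT. IRF3 and SMAD4 thus shared the state of TRIM46 in the first comparison, which 5.07% of all genes held. The state of SMAD2 in the second comparison, that of TRIM33 and TRIM66, was held by 0.656% of all genes. Of the 7 family members with other symbols, PML had a peak in 4 libraries, RNF207 in 3 and MID2 in 2, and MID1, MEFV, TRIML1 and TRIML2 had none.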

How the data were processed

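ATAC-seq peak lists of 6 libraries, grouped by their titles, were used. The submitters' processing notes list MACS2, Bowtie2, Trimmomatic, Picard, SAMtools, deepTools and bedtools, with build hg38. Not given in the sources used here are their versions, their settings and whether reads were shifted for the transposase. Peaks were deposited per library, not pooled. The deposited score, the fold (a ratio over local background), the −log10 p and the −log10 q are the authors' values from the peak caller, used within a list to rank peaks, and fold and p also to recover reads. Recovery assumed a Poisson p-value and a pseudocount of 1 and gave whole reads, within 0.001, at 99.99% of summits or more; at a median of 8 to 12 reads per summit by library, precision is low. Read totals were not used here.

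Gene ends came from the RefSeq gene table (GRCh38.p14), and overlap of 1 bp with the 1000 bp window counted. The strongest summit by −log10 q stood for a gene. Percentile is its rank in its own list. Groups were compared by counts and differences. The exact two-sided permutation test over libraries cannot go below 0.333 here, and no p is printed, since it would be one for a score over members chosen with results known. Settings tried were −log10 q of at least 5, equal lists of 7234 summits, windows of 500 and 2000 bp, summit in the window, start site only, a replicate block and each library left out; after seeing the data, copies left out, peaks merged over libraries, a crossed block and the RNF and UBE2 comparison were added. Named in full were members open in a group's 2 libraries and in none of another group, the extremes of those open in all 6 libraries, the chromatin cofactors and every tandem cluster; other members, such as TRIM25 and TRIM45, were named after their values were seen. The members and gene lists were chosen with earlier results of these data known. A gene of the innate sensing list is not reported here. USP genes, listed with RNF and UBE2 genes as like families, were not compared. A RING pattern search needed protein sequences and was not run. Scripts, tested on simulated peaks, used Python 3.11.15, numpy 2.4.6, pandas 2.3.3, scipy 1.17.1 and matplotlib 3.10.9.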

Additional observations from a re-analysis of the deposited data

How the results depend on the processing

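The limits are depth and 2 libraries a group. With −log10 q of at least 5, 1 member was open in V2084D alone against WT, beside 3.44% of all genes. Between V2084D shSTUB1 and V2084D, 1 was open in the first alone (0.466% of all genes) and 1 in the second alone (0.766%). In WT alone against V2084D shSTUB1 the count was 0, beside 0.170%. The ratio difference of V2084D against WT reversed to -0.0290. With lists of equal length, the differences were 1.3 points for V2084D minus WT, 3.25 for V2084D shSTUB1 minus V2084D and 4.55 for V2084D shSTUB1 minus WT. Between V2084D and WT, 1 was then open in V2084D alone (1.97% of all genes) and 1 in WT alone (1.74%). In V2084D alone against V2084D shSTUB1 the count was 1, beside 1.68%. Between V2084D shSTUB1 and WT, 2 were open in V2084D shSTUB1 alone (1.75%) and 0 in WT alone (1.75%). With a 500 bp window 0 were open in WT alone against V2084D shSTUB1, beside 0.120% of all genes. With 2000 bp 1 was open in V2084D shSTUB1 alone against V2084D, beside 0.375%. With start sites only, 2 of 62 members were open in V2084D alone against WT, beside 5.03% of all genes with a start site. V2084D shSTUB1 minus V2084D then reversed to -0.806 points and -0.0162 in the ratio. The TRIM share minus that of all genes, RNF and UBE2 was -12.7, -23.8 and -32.7 points. With copies left out of the TRIM genes but not of the other sets, these differences were 3.59, reversed, -5.36 and -11.6 points. Apart from the fewer genes or peaks each setting uses, the cause was not tested.

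Leaving out each library in turn, 4 to 16 members were open in V2084D alone against WT (5.52 to 18.9% of all genes). In WT alone there were 0 to 3 (0.0601 to 3.49%). In V2084D shSTUB1 alone against V2084D there were 2 to 10 (0.446 to 10.8%), and in V2084D alone 2 to 5 (0.941 to 6.24%). In V2084D shSTUB1 alone against WT there were 9 to 13 (9.25 to 15.8%), and in WT alone 1 to 2 (0.305 to 0.981%). V2084D minus WT ranged between 2.6 and 26 points, V2084D shSTUB1 minus WT between 13.6 and 18.8 points. V2084D shSTUB1 minus V2084D ranged from -9.74 to 13.6 points and from -0.0801 to 0.157 in the ratio, and V2084D shSTUB1 minus WT from -0.0294 to 0.208 in the ratio. The deviations of same-numbered libraries correlated weakly across genes. The correlation was -0.0591 for V2084D and WT, -0.150 for V2084D shSTUB1 and V2084D and 0.0355 for V2084D shSTUB1 and WT. With 2 libraries a group and lists of unequal length, this does not settle whether the numbers pair the libraries. With a replicate block the differences are, by construction in a balanced design, those without it: 14.3, 1.95 and 16.2 points and 0.0508, 0.0384 and 0.0892 in the ratio.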

Other observations

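Some TRIM genes were open inside the gene rather than at an end. TRIM45, the filamin-domain member on chromosome 1, had no gene-end peak in any library and an intragenic peak in all 6. Its strongest peak had folds of 8.85 and 6.86 with 22 and 13 reads in V2084D shSTUB1, 8.24 and 11.4 with 14 and 34 reads in V2084D and 8.59 and 6.99 with 16 and 12 reads in WT. These peaks ranked at the 81.7 to 99.5 percentile of their lists, with summits 1.74 to 2.14 kb inside the nearer annotated end, so that a window of 1000 bp left them out.

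In all, 15 members had 61 peaks inside the gene and beyond the windows. Of these peaks, 22 were in V2084D replicate 2, the longest list, and 16 over all libraries lay in TRIM2. The share of all protein-coding genes with such a peak was not counted, so these counts have no background. TRIM36 had such a peak about 10 kb inside the gene in V2084D shSTUB1 (folds of 6.6 and 5.5), in V2084D (6.82 and 6.33) and in WT replicate 2 (3.80 and 3.75 at a pair of peaks), and none in WT replicate 1. TRIM2, an NHL-repeat ligase of neurons, had 4 and 3 in V2084D shSTUB1, 1 and 6 in V2084D and 2 and 0 in WT. Of the 38 members without a gene-end peak, TRIM45, TRIM54, TRIM72 and TRIM39-RPP21 had an intragenic peak and 34 had none.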
